A study of Mus musculus with 15 samples.

Results

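Nfkbia, Tnfaip2, Ier3 and Litaf are 4 mouse genes known to be induced through the transcription factor NF-kB or by the stimuli that activate it, and they are described here in RNA of a treated lymphoid ES cell line set against the untreated line. Probes were assigned by the gene symbol of the platform annotation, updated through its Entrez identifier. This gave 7 of 20205 probes, 1 for Nfkbia and 2 each for Tnfaip2, Ier3 and Litaf, and 4 of 9834 named genes. The 4 genes were chosen from their log2 ratios, which lay mostly below 0 over these same arrays, so their treatment estimates are given as a description, with no test.

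The study hybridised 15 two-colour cDNA arrays, each with both RNAs. The treated line was labelled with Cy5 on arrays 1 to 8 and with Cy3 on arrays 9 to 15, the dye swaps, and the untreated line carried the other dye. The labels name no treatment, dose, time or genotype, do not say what makes an embryonic stem (ES) cell line lymphoid, and give no number of cultures. The protocol they carry mentions organs and pooled RNA of control animals, which no cell line has, so it is not known which arrays share RNA, and every p-value below measures the spread between arrays.

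All values are deposited log2 ratios of the 2 channels. Whether above 0 means more RNA in the treated line is not stated. Values past an absolute log2 ratio of 10, which stand for an empty channel, were above 0 in 1117 of 1117 cases with the treated RNA in Cy5 and below 0 in 882 of 882 cases with it in Cy3. Such signs arise from an empty Cy3 channel in ratios already turned to treated over untreated. They also arise from an empty Cy5 channel in ratios of untreated over treated, or from an empty untreated channel in swaps that were not turned. No file says which channel was empty, so the direction is not settled. Values are given as deposited, and a value below 0 means a lower level in the treated line on the first reading alone. Between 19213 and 19973 probes had a value on an array, and the spread of an array (SD of its log2 ratios) ran from 0.348 to 0.817. Arrays resembled each other little, with correlations over probes between -0.17 and 0.32, and arrays 7, 8 and 15 correlated with no other array above 0.0835. Because only ratios were analysed, neither the level of a member gene nor the identity of the line could be checked against marker levels.

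NF-kB dimers wait in the cytoplasm, held by inhibitor proteins of which the Nfkbia product, IkB-alpha, is the best known. Signals from tumour necrosis factor, interleukin and Toll-like receptors activate the IkB kinases, the inhibitor is degraded, and the freed dimers switch on target genes. Nfkbia is itself a target, which closes a negative feedback loop. Tnfaip2 encodes a protein induced by tumour necrosis factor and related to a subunit of the exocyst. Ier3 is an immediate early gene involved in cell survival. Litaf, named for its induction by lipopolysaccharide, encodes a small membrane protein of late endosomes and lysosomes.

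The promoters are shown because kappaB elements, the DNA sites of NF-kB, are what this group of genes is known for. All 4 genes matched an entry in the RefSeq promoter table for build GRCm38.p6. The 250 bases before the annotated start are printed 5′ to 3′ in the direction of the gene, in lower case, with capitals for matches on either strand to GGG and CC set 5 bases apart, or to GGAATTTCC. The second motif was chosen after these promoters had been read, and overlapping matches run together.
Nfkbia, chr12:55492648-55492897, minus strand: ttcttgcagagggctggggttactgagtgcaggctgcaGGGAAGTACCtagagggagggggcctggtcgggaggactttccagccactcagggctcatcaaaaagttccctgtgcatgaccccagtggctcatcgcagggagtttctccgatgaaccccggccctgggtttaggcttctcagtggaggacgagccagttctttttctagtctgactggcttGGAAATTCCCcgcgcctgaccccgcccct
Tnfaip2, chr12:111442411-111442660, plus strand: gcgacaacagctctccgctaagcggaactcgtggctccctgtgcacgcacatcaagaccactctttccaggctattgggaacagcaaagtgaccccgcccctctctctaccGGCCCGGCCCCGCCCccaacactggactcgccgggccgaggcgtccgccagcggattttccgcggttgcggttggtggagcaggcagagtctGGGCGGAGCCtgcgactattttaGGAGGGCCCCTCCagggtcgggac
Ier3, chr17:35821463-35821712, plus strand: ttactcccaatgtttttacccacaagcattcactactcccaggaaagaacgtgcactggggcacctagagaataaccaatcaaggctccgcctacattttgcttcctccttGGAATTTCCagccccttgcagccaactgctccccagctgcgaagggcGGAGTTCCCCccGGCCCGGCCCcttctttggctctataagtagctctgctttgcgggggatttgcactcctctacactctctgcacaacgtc
Litaf, chr16:10993122-10993371, minus strand: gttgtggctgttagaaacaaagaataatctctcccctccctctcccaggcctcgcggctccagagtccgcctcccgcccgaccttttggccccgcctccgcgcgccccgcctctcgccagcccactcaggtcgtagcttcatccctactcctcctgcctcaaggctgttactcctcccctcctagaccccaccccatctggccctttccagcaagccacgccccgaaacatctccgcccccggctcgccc
The loose motif, GGG and CC around any 5 bases, was found at 2 positions before Nfkbia, 5 before Tnfaip2, 2 before Ier3 and 0 before Litaf. It is common, being present in 45.8% of the 32851 windows of the table. The exact GGAATTTCC was found once before Nfkbia, on the opposite strand from 29 bases before the start, and once before Ier3, from 139 bases before it, against 0.29% of all windows. In Nfkbia this match overlaps one of the loose motif. These are letter matches in a window, and the arrays measured no binding.

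Nfkbia, the inhibitor, had 1 probe. With the treated RNA in Cy5 its log2 ratio ran from -0.717 on array 7 to 0.377 on array 1, with a median of 0.0015, and 3 of 8 arrays were below 0. On the dye swaps it ran from -0.763 on array 12 to -0.152 on array 13, with a median of -0.509, and 7 of 7 were below 0. The values thus scattered around 0 in one orientation and lay wholly below 0 in the other, and the ranges overlapped through arrays 4 and 7. The treatment estimate, the mean of both orientations in limma, was -0.25 ± 0.08 (SE, n = 15 arrays), a ratio of 0.844.

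Tnfaip2 had a pair of probes with nearly the same estimate and different behaviour. Probe 11640 ran from -0.875 on array 5 to -0.09 on array 3 with the treated RNA in Cy5 (median -0.30) and from -0.759 on array 14 to 0.109 on array 13 on the dye swaps (median -0.31). It was below 0 on 14 of 15 arrays, as were at least that many arrays for 0.186% of the 15618 probes with a value on every array, and both orientations covered the same range. Probe 14249 ran from -0.617 on array 8 to 0.435 on array 1 with the treated RNA in Cy5 (median -0.09) and from -0.822 on array 10 to -0.018 on array 13 on the dye swaps (median -0.667). Like Nfkbia, it straddled 0 in the first set, with 5 of 8 arrays below, and was below 0 on 7 of 7 dye swaps. Their treatment estimates were -0.34 ± 0.08 for probe 11640 and -0.33 ± 0.09 for probe 14249 (SE, n = 15), and -0.34 ± 0.06 for the mean of both, a ratio of 0.792.

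Ier3, the survival gene, repeated this split between its probes. Probe 16646 ran from -0.608 to 0.024 with the treated RNA in Cy5 (median -0.453) and from -0.889 to 0.381 on the dye swaps (median -0.542), below 0 on 13 of 15 arrays. The exceptions were array 5, close to 0, and array 15, which stood well above the rest. Probe 18005 ran from -0.749 on array 4 to 0.865 on array 2 with the treated RNA in Cy5 (median -0.223), and arrays 2 and 3 were its 2 high values. On the dye swaps it ran from -0.836 on array 12 to -0.056 on array 13 (median -0.534), with 7 of 7 below 0. Estimates were -0.43 ± 0.09 and -0.28 ± 0.12 (SE, n = 15), and -0.35 ± 0.08 for the gene.

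Litaf, the endosomal protein, had probes on opposite sides of 0. Probe 20033 ran from -1.133 on array 5 to -0.401 on array 3 with the treated RNA in Cy5 (median -0.543) and from -0.613 on array 15 to -0.11 on array 9 on the dye swaps (median -0.413). It was below 0 on all 15 arrays, which holds for 0.0256% of the 15618 probes with complete values, and this count belongs to the same values that put the gene among the 4. Its estimate of -0.51 ± 0.07 (SE, n = 15; a ratio of 0.703) was the lowest of the 19863 fitted probes when divided by its SE, again by choice of the gene.

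The other probe of Litaf, 18805, ran from -0.726 on array 1 to 0.655 on array 3 with the treated RNA in Cy5 (median -0.064, 7 arrays) and from -0.066 on array 15 to 2.051 on array 12 on the dye swaps (median 0.344). It was above 0 on 9 of 14 arrays and missing on array 7, and the value on array 12 was far above the others. The estimate was 0.25 ± 0.15 (SE, n = 14) and 0.12 ± 0.10 without array 12. The gene mean of -0.14 ± 0.09 therefore averages 2 probes that do not show the same thing. With probe 20033 standing alone for the gene, as under a filter for values on all 15 arrays, the estimate was -0.51 ± 0.07. Whether both probes report the same transcript was not tested.

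**Figure D1:**
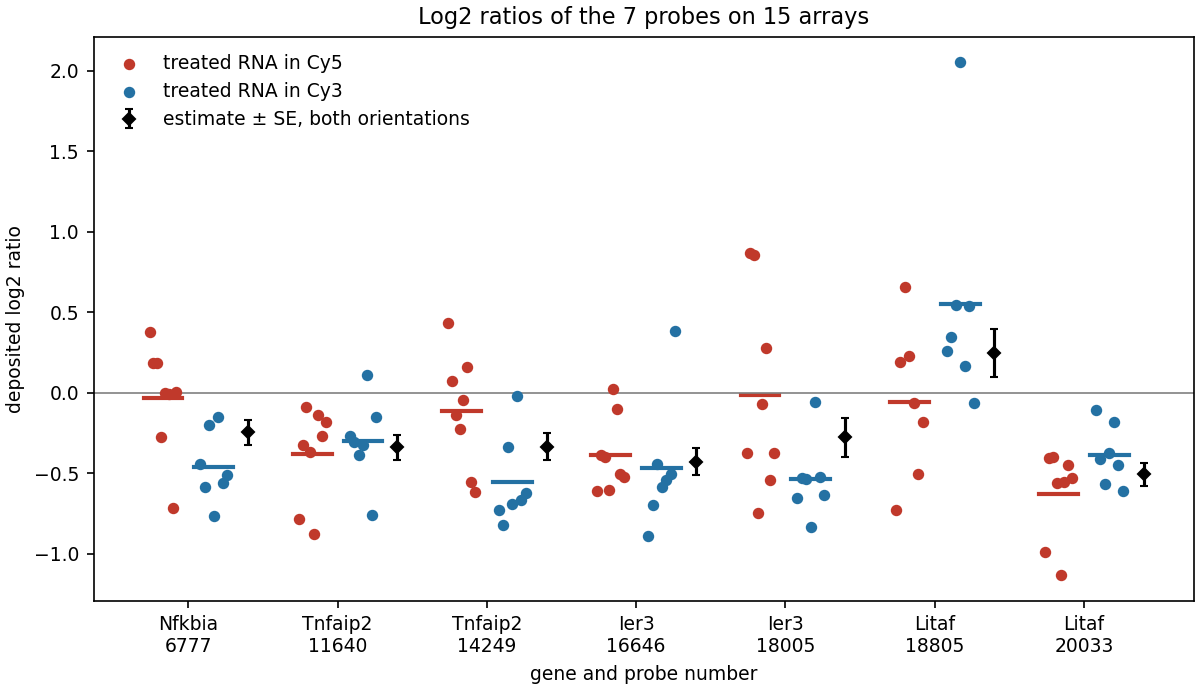
Deposited log2 ratio (vertical axis) of each of the 7 probes, named by gene and probe number, with arrays of treated RNA in Cy5 on the left in red and in Cy3 on the right in blue. Points are arrays, coloured bars orientation means, and black diamonds the estimate with its standard error. Litaf probe 20033 lies below 0 on all 15 arrays, while Nfkbia, Tnfaip2 probe 14249 and Ier3 probe 18005 lie wholly below 0 on the dye swaps alone.

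Read array by array, most of the 7 probes were below 0 on most arrays. That follows from how the genes were chosen, so the counts are description only. On the dye swaps 6 of 7 probes were below 0 on 6 arrays and 5 of 7 on array 13. With the treated RNA in Cy5 the count was lowest on array 2 (3 of 7) and array 3 (4 of 7). It was highest on array 7, where all 6 measured probes were below 0. The median of the probes on an array was above 0 on array 2 alone, at 0.07, and lowest on array 1, at -0.608. Array 1 held at once the highest values of Nfkbia and of Tnfaip2 probe 14249 and one of the 2 lowest of Litaf probe 20033.

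**Figure D2:**
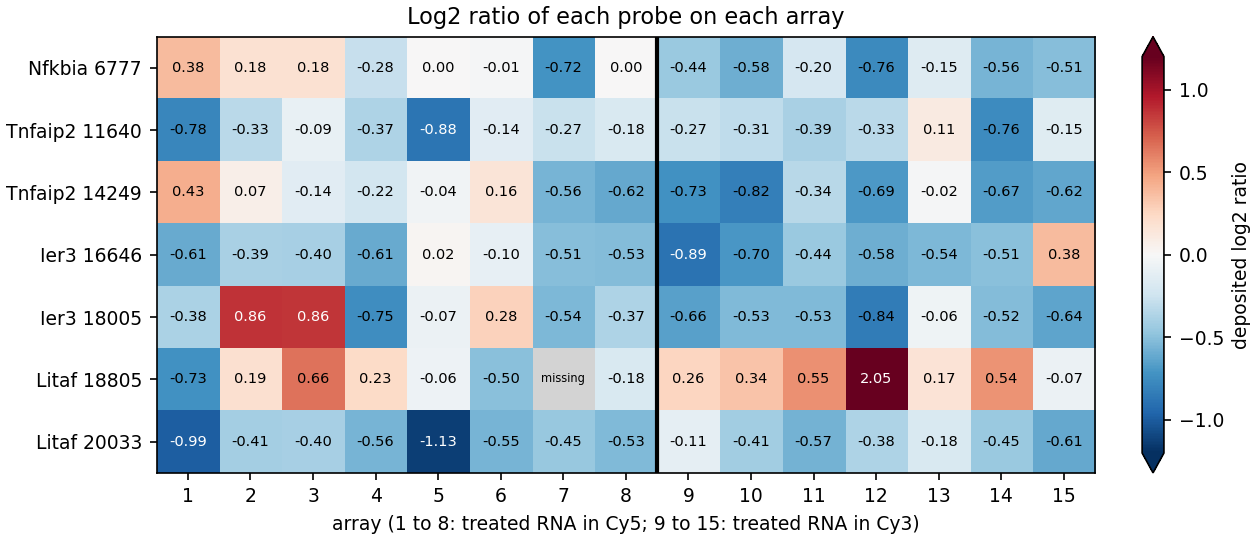
Log2 ratio of each probe (rows) on each array (columns), blue below 0 and red above 0, with the black line between arrays of treated RNA in Cy5 (1 to 8) and in Cy3 (9 to 15). Colours are capped at an absolute value of 1.2, and the value of 2.05 for Litaf probe 18805 on array 12 lies beyond it.

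The difference between dye orientations does not enter the mean of both, so it was tested. Choosing genes with values mostly below 0 can still limit that difference, so the test is not independent of the choice. The dye effect is the mean with the treated RNA in Cy5 minus the mean with it in Cy3, divided by 2. None of the 7 probes passed limma's test over all probes (Benjamini-Hochberg adjusted p under 0.05), which 2.74% of the 19863 probes did. At an unadjusted p under 0.05 there were 3 of the 7, against 20.3% of all probes. These were Nfkbia at 0.21 ± 0.08 (SE; adjusted p = 0.141), Tnfaip2 probe 14249 at 0.22 ± 0.09 (adjusted p = 0.161) and Ier3 probe 18005 at 0.26 ± 0.12 (adjusted p = 0.230).

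Orientation means behind these were -0.032 ± 0.337 and -0.459 ± 0.217 for Nfkbia (SD, 8 arrays with Cy5 and 7 with Cy3), -0.115 ± 0.354 and -0.555 ± 0.281 for Tnfaip2 probe 14249, and -0.015 ± 0.621 and -0.538 ± 0.240 for Ier3 probe 18005. The further probes of the same genes showed smaller dye effects, at -0.04 ± 0.08 for Tnfaip2 probe 11640 (adjusted p = 0.810) and 0.04 ± 0.09 for Ier3 probe 16646 (adjusted p = 0.833). Both Litaf probes had dye effects below 0, at -0.30 ± 0.15 (adjusted p = 0.267) for probe 18805 and -0.12 ± 0.07 (adjusted p = 0.342) for probe 20033. Without array 7 the Nfkbia probe passed, at 0.26 ± 0.07 (adjusted p = 0.0359). For that gene the treatment estimate and the dye effect are of like size. A test that misses its threshold does not show that the dye had no part. If the dye swaps had not been turned before deposit, these dye effects would be the treatment effects.

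How the genes varied together was examined on the deviation of each array from the mean of its orientation. Genes whose values lie mostly below 0 may have been favoured by small deviations. The tests below are thus not fully independent of how the genes were chosen. Over the 6 pairs of gene means, correlations of the values as deposited were highest among Nfkbia, Tnfaip2 and Ier3, an order that changed with the probe used. Nfkbia and Tnfaip2 correlated at r = 0.57 over 15 arrays (Spearman's rho 0.61; two-sided permutation p = 0.0195 and 0.0218, adjusted p over 6 pairs = 0.117 and 0.131). Tnfaip2 and Ier3 correlated at r = 0.49 (rho 0.49; permutation p = 0.0542 and 0.0865, adjusted 0.163 and 0.260), and Nfkbia and Ier3 at r = 0.45 (rho 0.41; permutation p = 0.135 and 0.143, adjusted 0.270 and 0.287). No pair passed after adjustment, and 1 of 6 did at an unadjusted p under 0.05. Another version let the most measured probe stand for each gene. Both probes of Tnfaip2 and of Ier3 had values on 15 arrays, so the lower probe number was taken, 11640 and 16646. There r was -0.02 for Nfkbia and Tnfaip2, 0.01 for Tnfaip2 and Ier3 and 0.05 for Nfkbia and Ier3. With the tied Tnfaip2 probe 14249, r with Nfkbia was 0.74. After quantile normalization of the arrays the gene means of these pairs, in the same order, had r = 0.25, 0.26 and 0.14. The mean of both Litaf probes had r between -0.22 and -0.0061 with the other genes (permutation p between 0.427 and 0.983, adjusted 0.640 to 0.983; rho between -0.24 and -0.03, permutation p between 0.398 and 0.926). With probes 11640 and 20033 standing for them in that version, Tnfaip2 and Litaf correlated at r = 0.73 (permutation test, adjusted p = 0.0427). It was the only pair of genes to pass there, and with Tnfaip2 probe 14249 instead of 11640 r was -0.26.

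Within orientations the 3 positive pairs kept their sign. Nfkbia and Tnfaip2 had r = 0.51 with Cy5 and 0.74 with Cy3, Tnfaip2 and Ier3 0.54 and 0.51, and Nfkbia and Ier3 0.47 and 0.41. Without the 2 arrays farthest from the median of the first gene, r was 0.61, 0.43 and 0.61 for these pairs. Of the 8296 other genes with complete values, 8.03% had a higher r with Nfkbia than Tnfaip2 did and 14.7% a higher r than Ier3. Of the same genes, 4.50% had a higher r with Tnfaip2 than Ier3 did. From the side of the second gene, 2.16% of genes had a higher r with Tnfaip2 than Nfkbia did. An absolute r above 0.6 was reached by 8.98% of genes with Nfkbia, 2.23% with Tnfaip2, 4.99% with Ier3 and 3.70% with Litaf.

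At the level of probes, the 3 genes with 2 probes each showed little likeness between their own probes. The Tnfaip2 probes correlated at r = -0.08 (rho 0.01; permutation p = 0.781 and 0.976, adjusted p over 21 pairs = 0.965 and 0.976), the Ier3 probes at r = 0.18 (rho 0.48; permutation p = 0.443 and 0.0634, adjusted 0.715 and 0.444), and the Litaf probes at r = 0.26 over 14 arrays (rho 0.23; permutation p = 0.353 and 0.455, adjusted 0.686 and 0.729). The 2 highest of the 21 correlations joined probes of different genes. Nfkbia and Tnfaip2 probe 14249 correlated at r = 0.74 (rho 0.72; permutation p = 0.00325 and 0.00437, adjusted p = 0.0683 and 0.0791), and Tnfaip2 probe 11640 and Litaf probe 20033 at r = 0.73 (rho 0.69; permutation p = 0.00712 and 0.00753, adjusted p = 0.0748 and 0.0791). None of the 21 pairs passed after adjustment, and 3 did at an unadjusted p under 0.05.

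For Nfkbia and Tnfaip2 probe 14249, r was 0.70 with Cy5 (8 arrays, exact permutation p = 0.0519) and 0.84 with Cy3 (7 arrays, exact permutation p = 0.0155). Array 7 was low and array 1 high for both probes, and r without arrays 1 and 7, the 2 farthest for Nfkbia, was 0.61. For Tnfaip2 probe 11640 and Litaf probe 20033, r was 0.93 with Cy5 (8 arrays, exact permutation p = 0.0107) and 0.35 with Cy3 (7 arrays, exact permutation p = 0.456). Arrays 1 and 5 were low for both. Of the 15617 other probes with complete values, 38 had a higher r with Tnfaip2 probe 11640 than Litaf probe 20033 did (0.243%), and 211 a higher r with Nfkbia than Tnfaip2 probe 14249 did (1.35%). The call depended on single arrays. The first pair passed without array 8 (r = 0.85, adjusted p = 0.00672) or array 15 (r = 0.74, adjusted p = 0.0468), and the second without array 15 (r = 0.82, adjusted p = 0.0468). Nfkbia and Ier3 probe 18005, at r = 0.56 (adjusted p = 0.331), passed without array 1 (r = 0.73, adjusted p = 0.0373), as did Ier3 probe 16646 and Litaf probe 20033 in the other direction (r = -0.65 against -0.48 with all arrays, adjusted p = 0.0373). For this last pair rho over all arrays was -0.29, and r was -0.05 without the 2 arrays farthest for Ier3 probe 16646.

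**Figure D3:**
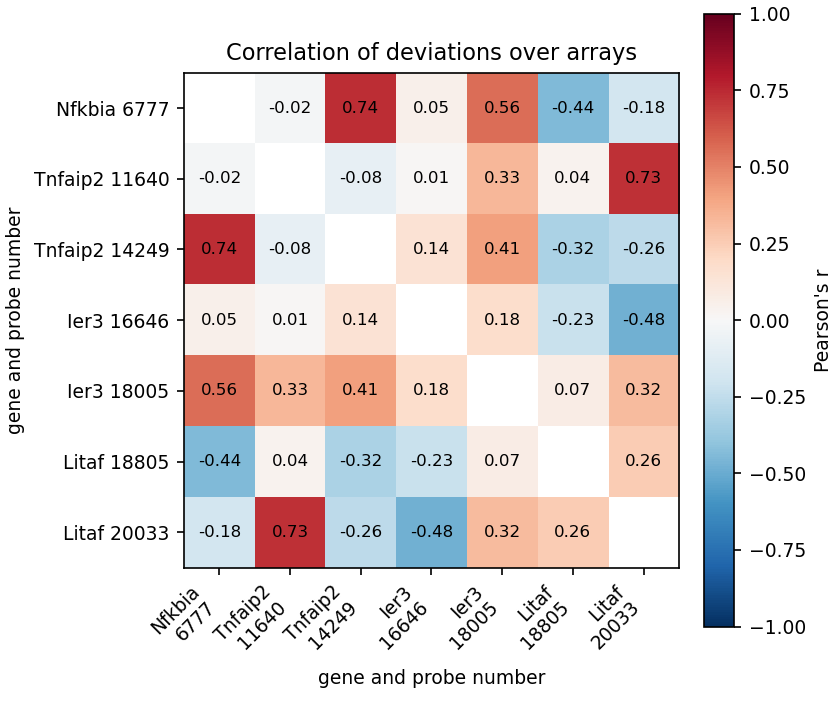
Pearson's r between the deviations of the 7 probes over arrays (14 for pairs with Litaf probe 18805, else 15), red above 0 and blue below 0. The values of 0.74 and 0.73 join probes of different genes, while the probes of Tnfaip2 stand at -0.08.

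**Figure D4:**
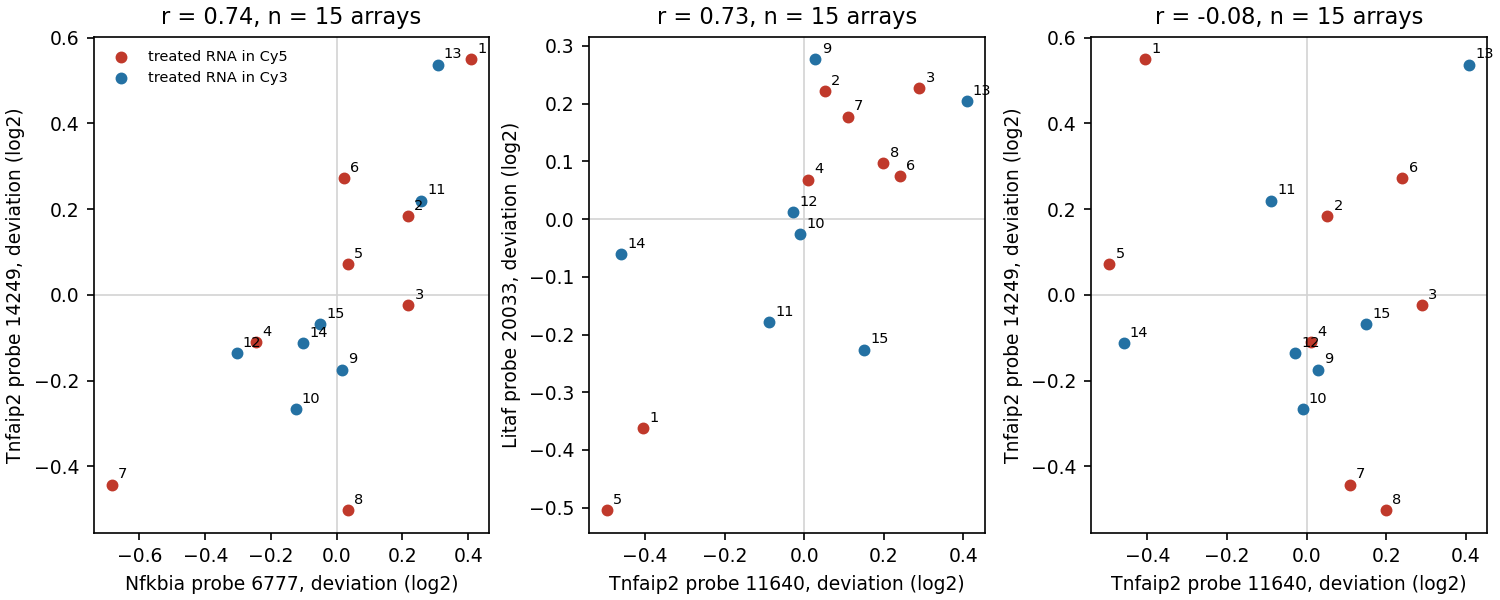
Deviation of each array from the mean of its orientation (log2, array numbers beside the points, red for treated RNA in Cy5 and blue for Cy3) for the 2 most alike pairs and, on the right, for the 2 probes of Tnfaip2. Arrays 1 and 7 lie at the ends of the left panel and arrays 1 and 5 at the low end of the middle panel.

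The genes whose deviations were most like those of a member, the first 3 by r over 15 arrays among 8296, were not genes of the NF-kB lists. For Nfkbia they were Thrb, a thyroid hormone receptor (r = 0.91), Marchf6, a ubiquitin ligase of the endoplasmic reticulum (0.87), and Zadh2 (0.86). For Tnfaip2 they were Unc5d, a netrin receptor (0.89), Smg5, of nonsense-mediated decay (0.86), and Pgp, a phosphoglycolate phosphatase (0.83). Ier3 had the ubiquitin ligase Marchf1 (0.82), the maintenance DNA methyltransferase Dnmt1 (0.81) and Actr3, of the Arp2/3 actin complex (0.80). Litaf had Ankrd13b (0.89), the microtubule protein Map6 (0.87) and the mitochondrial protein Hint2 (0.86). Treatment estimates of these 12 genes lay between -0.06 for Marchf6 and 0.18 for Zadh2, with 3 of the 12 below 0 (Thrb, Marchf6 and Smg5). These correlations are maxima over many genes and carry no test.

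The rest of the NF-kB system was described by lists of 109 genes in 5 roles, of which 62 could be fitted. None passed limma's test over all genes in either direction, where 0.0412% of 9720 genes did, and 8 of 62 had an unadjusted p under 0.05, against 682 of 9720. In all, 39 of 62 were below 0 (62.9%) with a median of -0.032, against 48.0% and a median of 0.0054 over all genes. With the sign of the dye swaps turned, 32 of 62 were below 0 (51.6%), against 50.8% of all genes. The lists were drawn up with earlier results of these data known. For the dye effect 2 of the 62 passed, where 2.61% of all genes did. They were the receptor Tnfrsf1a at 0.39 ± 0.10 (SE; adjusted p = 0.0465) and the kinase gene Pim1 at 0.35 ± 0.07 (adjusted p = 0.0165).

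Among ligands and receptors 9 of 10 were below 0, with a median of -0.081, but 1 of 10 with the dye swaps turned (median 0.080). The lymphotoxin receptor Ltbr was at -0.30 ± 0.09 (SE; adjusted p = 0.457) and the tumour necrosis factor receptor Tnfrsf1b at -0.13 ± 0.06 (adjusted p = 0.710). At the other end were Tnfrsf11a, the receptor RANK, at 0.01 ± 0.12 and the ligand Ltb at -0.06 ± 0.21. Kinases and adaptors had 7 of 18 below 0 and a median of 0.012, or 13 of 18 with the dye swaps turned. The adaptor Tradd was at -0.48 ± 0.27 and the kinase Map3k14 at -0.13 ± 0.11, against the IkB kinase Ikbkb at 0.14 ± 0.07 (adjusted p = 0.713) and the ubiquitin ligase Traf6 at 0.19 ± 0.10 (adjusted p = 0.727).

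Of the NF-kB subunits 3 of 5 were fitted, Relb at -0.29 ± 0.18 (SE), Nfkb2 at -0.03 ± 0.13 and Rela at -0.02 ± 0.10, all less than 2 SE from 0. Other inhibitors of NF-kB, a list by role and not by gene family, had 5 of 9 below 0, or 4 of 9 with the dye swaps turned. Nfkbiz was at -0.12 ± 0.10 and Nfkbie at -0.31 ± 0.27 on the low side, with Bcl3 at 0.06 ± 0.25 and Tnip1, which binds the ubiquitin editor A20, at 0.32 ± 0.14 (adjusted p = 0.682) on the high side. Other targets had 15 of 22 below 0 and a median of -0.045, or 13 of 22 with the dye swaps turned. Klf6, a zinc finger factor, was at -0.36 ± 0.09 (adjusted p = 0.344) and the survival gene Bcl2l1 at -0.17 ± 0.06 (adjusted p = 0.503), against Cd83 at 0.17 ± 0.07 (adjusted p = 0.682) and the chemokine Ccl5 at 0.16 ± 0.12.

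Relatives and partners of the members were also listed, such as ubiquitin ligases that bind Litaf or mark IkB-alpha. Of 16 fitted, 9 were below 0, with a median of -0.018. Marker genes of several cell types were described in the same way, and the labels do not say that cells other than the line were present. Of 18 fitted myeloid markers, 15 lay below 0 (median -0.065), against 48.0% of all genes. In the test of the treatment estimate 0 of 18 passed, where 0.0412% of all genes did. The list's median on an array ran from -0.227 to 0.0747. With the dye swaps turned 6 of 18 lay below 0, against 50.8% of all genes. The dye effect passed for 2 of 18, where 2.61% of all genes did. These were the oxidase gene Cybb at 0.38 ± 0.09 (SE; limma adjusted p = 0.0339) and the calcium-binding S100a9 at 0.31 ± 0.06 (adjusted p = 0.0127). Fibroblast markers had 4 of 14 below 0 (median 0.061), pluripotency markers 4 of 11 (0.068), B cell markers 3 of 6 (-0.0024) and T and NK cell markers 6 of 8 (-0.068). With the dye swaps turned these counts became 7 of 14, 7 of 11, 4 of 6 and 5 of 8, in the same order. In bulk RNA, fewer cells of a type and less RNA per cell cannot be told apart, and the part of myeloid markers in the values of the 4 genes was not tested.

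**Figure D5:**
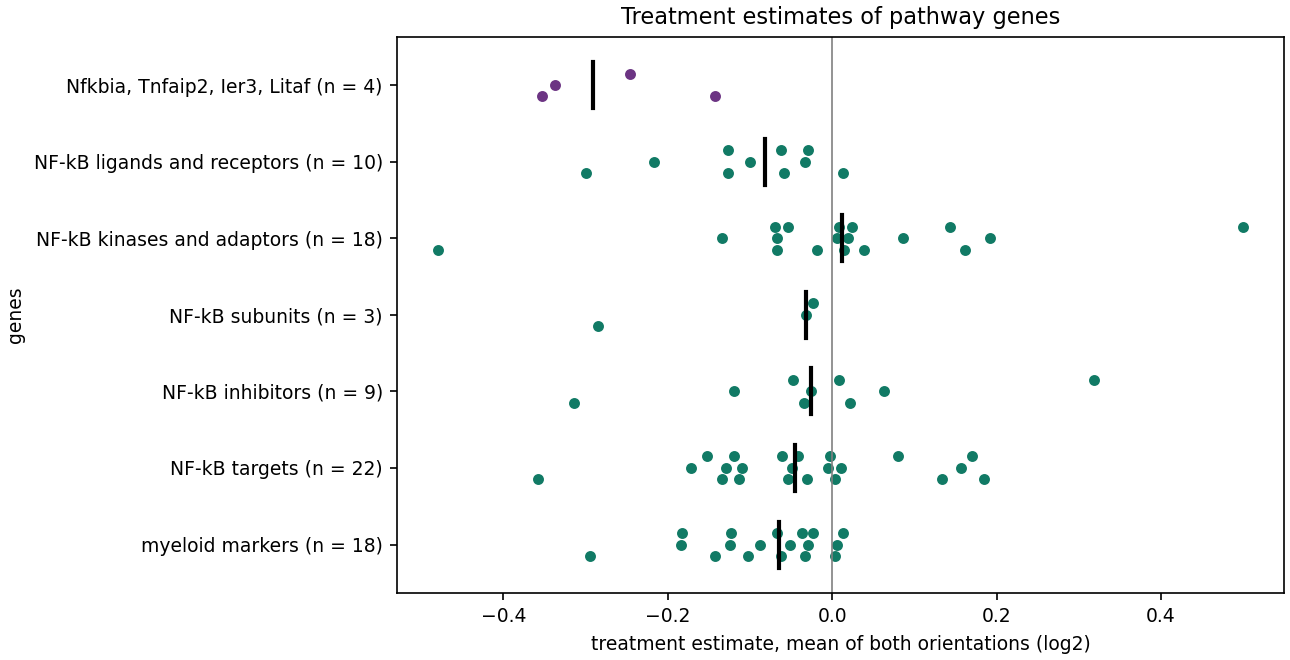
Treatment estimate (log2, mean of both orientations) of each fitted gene (points) by role, with the list's median as a black bar. The 4 members, chosen for their low values, lie between -0.35 and -0.14, and the medians of the other NF-kB roles between -0.081 and 0.012.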

How the data were processed

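The authors deposited 1 log2 ratio of the channels per probe and array. Per the labels' protocols, RNA was labelled indirectly with Cy3 or Cy5. Not given in the sources used here are the background correction, normalization, spot filter and ratio direction. Placeholders (absolute log2 above 10, 1999 values, 0 of them at the member probes) were set missing. Of the members' 105 values, 104 were measured, and 1 (Litaf probe 18805, array 6) was dim, equalling its array's constant plus the log2 of 2 small whole numbers (at most 6) divided by each other. Scanner intensities were not analysed here, so signal over background is unknown; precision is limited by how many arrays there are.

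The platform annotation gave 1 symbol for 13891 probes, and 13855 were updated through a RefSeq table; all 7 member probes matched. Probes of a gene were averaged on each array. A probe or gene needed 4 values per orientation to be fitted, which left 19863 probes and 9720 genes. The fit used lmFit and eBayes of limma 3.58.1 in R 4.3.3, with the mean of both orientations and the dye effect as terms; the fit was tested on simulated data. Correlations used 100000 permutations within orientation, with all pairings in an exact permutation test within 1 orientation, and numpy 2.4.6. No 2 arrays held the same values. Members and gene lists were chosen with earlier results of these data known. Named genes were the members, the 3 most alike genes of each and, per NF-kB role, the 2 highest and 2 lowest by estimate over SE. Alternatives covered orientation, normalization, filters, weights and each array left out.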

Additional observations from a re-analysis of the deposited data

Results flagged for a closer look

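In 3 of 14 sets of a probe and an orientation, 1 array lay farther from the rest than Dixon's 95% critical value, where chance alone marks about 1 set in 20; all 3 are dye swaps. Litaf probe 18805 was at 2.051 on array 12, and the gap to its neighbour made up 0.711 of the range. Ier3 probe 16646 was at 0.381 on array 15 (0.647 of the range), and without that array its estimate was -0.50 ± 0.07 (SE), against -0.43 ± 0.09 with it. Ier3 probe 18005 was at -0.056 on array 13 (0.597 of the range). The remaining probes of those genes did not stand out on these arrays.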

How the results depend on the processing

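Alternatives were centring, scaling and quantile normalization, the looser filter, no dye term, array weights and placeholders left in. Others were dim spots left out (added after seeing the data), either orientation alone and leaving out arrays 7, 8 and 15. All moved every treatment estimate by less than the SD between arrays. That margin is wide, larger than the estimate itself for Nfkbia (0.29), Ier3 probe 18005 (0.48), Litaf probe 18805 (0.59) and the Litaf mean (0.34). On the Cy5 arrays alone Nfkbia was at -0.032 ± 0.12 and Ier3 probe 18005 at -0.015 ± 0.20 (SE), against -0.46 and -0.54 on the Cy3 arrays alone. The sign changed for the Litaf mean on the Cy3 arrays alone (0.081) and for Litaf probe 18805 on the Cy5 arrays alone (-0.057). With the sign of the dye swaps turned, the estimate becomes the dye effect by construction. It was then 0.21 for Nfkbia, 0.22 for Tnfaip2 probe 14249, -0.04 for Tnfaip2 probe 11640, 0.090 for the Tnfaip2 mean, 0.26 and 0.040 for Ier3 probes 18005 and 16646, 0.15 for the Ier3 mean, and -0.30 and -0.12 for Litaf probes 18805 and 20033; dye effects were not run there, as they equal the estimate the genes were chosen on. For Litaf the mean was -0.51 over values on all 15 arrays and with the most measured probe, since 1 probe then remains. That choice fell on Tnfaip2 probe 11640 by its lower number alone, as both Tnfaip2 probes had values on 15 arrays. With it the dye effect of Tnfaip2 was -0.04, against 0.09. Tnfaip2 and Litaf then correlated at 0.73 (permutation test, adjusted p = 0.0427), against -0.03, and Nfkbia and Tnfaip2 at -0.02, against 0.57. The Nfkbia gene mean had a dye effect of 0.26 without arrays 7, 8 and 15 (limma adjusted p = 0.0485). Without subtracting orientation means, r was 0.67 for Nfkbia and Tnfaip2, 0.60 for Nfkbia and Ier3 and 0.59 for Tnfaip2 and Ier3. All had adjusted p = 0.0437 in a permutation test across all 15 arrays. The difference between orientations enters both r and p there. After scaling of the arrays, r of Nfkbia and Tnfaip2 probe 14249 was 0.56 (adjusted p = 0.524), and after quantile normalization 0.50 (adjusted p = 0.680). For the gene means of Nfkbia and Tnfaip2, Tnfaip2 and Ier3, and Nfkbia and Ier3, r was 0.39, 0.38 and 0.35 after scaling.

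Leaving out 1 array at a time, estimates ran from -0.27 to -0.20 for Nfkbia, -0.37 to -0.30 and -0.38 to -0.30 for Tnfaip2 probes 11640 and 14249, -0.50 to -0.39 and -0.34 to -0.22 for Ier3 probes 16646 and 18005, 0.12 to 0.30 and -0.53 to -0.47 for Litaf probes 18805 and 20033. The dye effect of Nfkbia ran from 0.18 to 0.26. Counts of NF-kB list genes below 0 ran from 37 to 42, and the count was 32 of 62 with the dye swaps turned. It was 33 of 61 without arrays 7, 8 and 15 (54.1%, against 44.8% of all genes) and 46 of 62 after scaling (74.2% against 51.0%). On the Cy5 arrays alone it was 35 of 63 (55.6% against 48.6%) and on the Cy3 arrays alone 37 of 62 (59.7% against 48.0%). No paired analysis was possible because the array numbers in the titles do not repeat between orientations. Ratios without intensities limit what can be said of weak spots.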
